A study of Mus musculus with 20 samples.

Results

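Peripheral blood of Lyn-/-Ifnar1-/- mice was compared with that of Lyn-/-Irf5-/- mice, to ask how the blood transcriptome differed between loss of the type I interferon receptor and full loss of the transcription factor IRF5 on the same Lyn-deficient background. Lyn-/- mice develop a disease that resembles systemic lupus erythematosus, and all 8 mice compared here lacked Lyn. The 2 groups had 4 mice each, out of 20 mice of 5 genotypes in the series (the others were WT, Lyn-/- alone, and Lyn-/- with 1 Irf5 allele lost, written Lyn-/-Irf5+/-). All were female C57BL/6 mice aged 22 to 23 weeks, carried their alleles in every cell, and are given no treatment in the labels. Of the 9228 genes in the deposited table, 8217 reached 1 RPKM (reads scaled to transcript length and to library size) in at least 4 of the 8 libraries and were tested. A log2 difference below 0 means that the level was lower in Lyn-/-Ifnar1-/- than in Lyn-/-Irf5-/- mice, on the log2(RPKM + 0.5) scale.

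As background, IFNAR1 is a chain of the receptor that binds all type I interferons. Receptor binding activates the kinases JAK1 and TYK2, and these phosphorylate STAT proteins, which join IRF9 to form ISGF3, the factor that binds interferon-stimulated response elements in promoters of interferon-stimulated genes (ISGs). IRF5 acts earlier, downstream of Toll-like receptors and MyD88, where it induces type I interferon and inflammatory cytokine genes. LYN is a Src family kinase that restrains this pathway and signals through inhibitory receptors of B cells and myeloid cells.

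The 8 libraries were blood by their markers, and 2 of them stood apart. Genes that define B cells (Cd79a), T cells (Cd3e), neutrophils (S100a8), nonclassical monocytes (Csf1r), platelets (Pf4) and erythroid cells (Alas2) were detected in every library. Of the neutrophil precursor genes, Ngp and Ltf were also detected in every library, at lowest levels of 0.801 and 0.0777 RPKM. Camp was at 0 in at least 1 library of each group and reached 8.61 RPKM in Lyn-/-Ifnar1-/- mice. Reads recovered from the steps in the RPKM values amounted to 1123205 to 1569869 per library in Lyn-/-Ifnar1-/- and 1345509 to 1726853 in Lyn-/-Irf5-/- mice, without 6 genes that include the most abundant globin entry. The median gene had 30, 43, 11 and 22 reads in the Lyn-/-Ifnar1-/- libraries and 51, 52, 46 and 35 in the Lyn-/-Irf5-/- libraries. Lyn-/-Ifnar1-/- mice 3 and 4 were the shallowest by this measure and had the highest levels of the red cell membrane and skeleton list, with means of 6.19 and 5.40 on the log2(RPKM + 0.5) scale against 4.12 and 4.06 in mice 1 and 2 and 3.47 to 3.95 in Lyn-/-Irf5-/- mice. Lyn-/- mice ranged from 4.95 to 6.07 on this list and WT mice from 3.91 to 4.38. Results that rest on these mice are therefore given also without them. In whole blood, fewer cells of a type and less RNA per cell cannot be told apart.

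**Figure D1:**
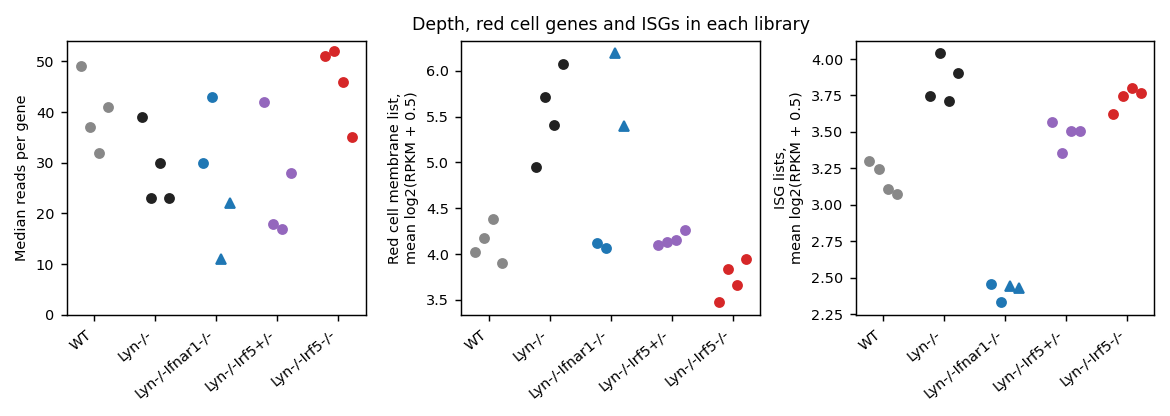
Median recovered reads per gene (left), mean level of the red cell membrane and skeleton list (middle) and mean level of all ISG lists (right) in each library, the last 2 in log2(RPKM + 0.5). Each point is 1 mouse and triangles mark Lyn-/-Ifnar1-/- mice 3 and 4, which had 11 and 22 reads at the median gene. All 4 Lyn-/-Ifnar1-/- mice had ISG means of 2.33 to 2.45, below every other mouse.

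Lyn was below WT levels in all 8 libraries, but the table could not check the Ifnar1 and Irf5 labels. It gives 1 value for a whole gene, including transcript outside a deleted or disrupted part. Lyn was at 10.1, 10.02, 2.42 and 7.49 RPKM in the libraries labelled Lyn-/-Ifnar1-/- and at 9.74, 7.43, 11.4 and 10.3 in those labelled Lyn-/-Irf5-/-, below the 32.4 to 36.9 of WT mice in each case. Ifnar1 was at 10.6, 10.1, 6.23 and 7.12 RPKM in the libraries labelled Lyn-/-Ifnar1-/- and at 5.93, 6.06, 5.66 and 4.58 in those labelled Lyn-/-Irf5-/-. The first 4 values all lay above the last 4 and above the 5.11 to 6.11 of WT mice, opposite to the direction of the label. Irf5 was likewise at 38.5, 35.1, 40.8 and 38.2 RPKM in the libraries labelled Lyn-/-Irf5-/- and at 25.9, 25.6, 14.4 and 21.9 in those labelled Lyn-/-Ifnar1-/-. WT mice held Irf5 at 20.1 to 21.7 RPKM and Lyn-/- mice at 27.8 to 40.4. The Lyn-/- range covered 3 of the 4 Lyn-/-Irf5-/- values. Genotypes below are those of the labels, and every direction rests on them.

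Blood of mice labelled Lyn-/-Ifnar1-/- had lower levels of 68 genes and higher levels of 4 genes than that of mice labelled Lyn-/-Irf5-/- at an adjusted p under 0.05, which is 0.828% and 0.0487% of the genes tested, or 0.876% together. Of the 68 lower genes, 42 belonged to the ISG lists, 11 to other lists only and 15 to none. The median log2 difference of all 8217 genes was -0.03. At an unadjusted limma p under 0.05, 649 of them were lower and 629 higher, the background for such counts in lists below. Leaving out Lyn-/-Irf5-/- mouse 1, 3 or 4 left 44, 42 or 43 lower genes. In all 72 genes the 4 values of one group lay apart from the 4 values of the other. Where all 4 values of a group were under 1 RPKM, as for Oas1a, the filter itself fixed this separation. That holds for such counts in the lists below too. Across the table, 6.21% of the genes had all 4 Lyn-/-Ifnar1-/- values below all 4 Lyn-/-Irf5-/- values, and 4.93% had them above. Without Lyn-/-Ifnar1-/- mice 3 and 4, 121 genes were lower and 47 higher, and 67 of the 68 and 3 of the 4 were among them.

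**Figure D2:**
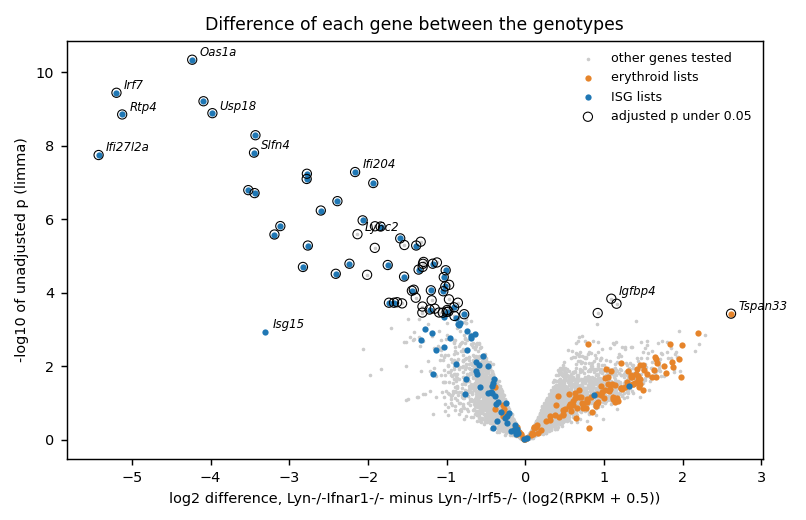
Log2 difference between Lyn-/-Ifnar1-/- and Lyn-/-Irf5-/- mice (horizontal axis) against the negative log10 of the unadjusted limma p (vertical axis) for the 8217 genes tested, with 4 mice a group. Blue points are ISG list members, orange points are erythroid list members and rings mark the 72 genes with an adjusted p under 0.05, of which 68 lie on the left.

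ISGs formed the main difference. Of the 98 genes of the ISG lists that were tested, 42 were lower in Lyn-/-Ifnar1-/- mice at an adjusted p under 0.05, none was higher, and 94 had a log2 difference below 0. Their median log2 difference was -0.93, and in 71 of them all 4 Lyn-/-Ifnar1-/- values lay below all 4 Lyn-/-Irf5-/- values. The mean level over these genes was 2.33 to 2.45 in Lyn-/-Ifnar1-/- mice, 3.62 to 3.80 in Lyn-/-Irf5-/- mice, 3.35 to 3.57 in Lyn-/-Irf5+/- mice, 3.71 to 4.04 in Lyn-/- mice and 3.07 to 3.30 in WT mice on the log2 scale. The Lyn-/-Ifnar1-/- range thus lay below WT and the Lyn-/-Irf5-/- range above it. Without mice 3 and 4 the count was 52.

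Among factors and regulators of the pathway, Irf7 and Usp18 changed most. Irf7 (chr7:141263183-141266499), the interferon-induced factor that amplifies interferon production, was at 5.26, 6.74, 9.002 and 8.61 RPKM in Lyn-/-Ifnar1-/- mice and at 221, 282, 323 and 324 in Lyn-/-Irf5-/- mice. These ranges were far apart, with a log2 difference of -5.20 (SE 0.22, adjusted p = 1.5e-06). The WT mean was 179 and the Lyn-/- mean 669 RPKM, so Irf7 in Lyn-/-Irf5-/- mice stood between them while in Lyn-/-Ifnar1-/- mice it stood below both. Usp18 (chr6:121245906-121270917), which removes ISG15 from proteins and limits receptor signalling, was listed at 0, 0, 0 and 0.266 RPKM against 7.22, 8.08, 8.64 and 9.24. The Lyn-/-Ifnar1-/- group held 1 read of this gene in all and the Lyn-/-Irf5-/- group 245, a ratio of 147 corrected for library scale with a 95% counting interval of 26.2 to 5838. Stat2 and Irf9, subunits of ISGF3, fell less steeply. Stat2 had a log2 difference of -0.91 (SE 0.16, adjusted p = 0.035) and Irf9 one of -1.001 (SE 0.19, adjusted p = 0.043). Both calls were lost without Lyn-/-Ifnar1-/- mouse 2 or 4, or any 1 Lyn-/-Irf5-/- mouse. The receptor, kinase and STAT list as a whole had 1 lower gene of 16, Stat2, and a median of 0.11.

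The OAS family, enzymes that sense double-stranded RNA, were in large part lower. Of 9 list members tested, 6 were lower and the median log2 difference was -2.83. Oas1a (chr5:120896256-120907544) was at 0 in all 4 Lyn-/-Ifnar1-/- libraries and at 8.02, 8.59, 9.50 and 9.65 RPKM in the Lyn-/-Irf5-/- libraries. Oas2 (chr5:120730333-120749886) was at 0 in the same 4 libraries and at 6.29, 7.14, 8.91 and 10.3 RPKM in the others. Oasl1 and Oas1g were also at 0 in every Lyn-/-Ifnar1-/- library, against 3.78 to 6.44 and 1.497 to 3.70 RPKM. No read of these 4 genes was recovered in the Lyn-/-Ifnar1-/- group, compared with 282, 518, 182 and 89 reads in the Lyn-/-Irf5-/- group. With a floor of 3 reads over the group, Oas1a was at least 56.5-fold, Oas2 at least 104-fold, Oasl1 at least 36.5-fold and Oas1g at least 17.8-fold lower. WT mice held Oas1a at a mean of 2.505 and Oas2 at 2.16 RPKM, so both genes were above the Lyn-/-Ifnar1-/- level in WT blood too. Oas1a and Oas1g are close copies, and the division of reads between them is uncertain.

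Oas3, Oasl2, Isg15 and Herc6 were highest in mouse 3 within the Lyn-/-Ifnar1-/- group, as were Ifit1 and Ifit3. Oas3 was at 0.519, 0.469, 2.76 and 0.499 RPKM in Lyn-/-Ifnar1-/- mice, highest in mouse 3, and at 6.73, 10.5, 8.42 and 11.0 in Lyn-/-Irf5-/- mice, a log2 difference of -2.83 (SE 0.37, adjusted p = 0.0046). Isg15 (chr4:156199424-156200818), the ubiquitin-like protein attached to targets after interferon, was at 14.8, 14.0, 204 and 63.5 RPKM against 313, 408, 429 and 507. The groups did not overlap, but mice 3 and 4 lay well above mice 1 and 2, and the log2 difference of -3.31 (SE 0.74, adjusted p = 0.098) did not pass the test. Without mice 3 and 4 it was -4.78 (adjusted p = 8.7e-09). Herc6, the mouse ligase for ISG15, was at 0.728, 0.791, 3.70 and 1.96 against 2.38, 3.07, 3.58 and 2.81 RPKM with overlapping groups, and did not pass the test, at -0.77 (SE 0.36, adjusted p = 0.34). It did without these mice, at -1.45 (adjusted p = 0.0014), and also with library weights or the red cell list as a covariate. The 4 ISG list members with a difference above 0 included Isg20 and Ube2l6, neither past the test, and Isg20 was picked for description after its values were seen. Isg20 was at 3265, 2630, 13738 and 8778 RPKM in Lyn-/-Ifnar1-/- mice and at 1884, 2305, 2298 and 2732 in Lyn-/-Irf5-/- mice. Its highest values, like those of Ube2l6, were in mice 3 and 4, the mice with the highest red cell list. No ISG list member was called higher with all 8 mice, with or without the red cell list as a covariate. The covariate fit thus had no such call to remove. Why these 2 genes were highest in mice 3 and 4 was not tested.

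Antiviral effectors made up most of the lower ISGs, with 27 of 58 tested past the threshold and a median log2 difference of -0.93. Ifi27l2a (chr12:103433873-103443680) had the largest difference of all genes tested on the log2(RPKM + 0.5) scale, on which genes near 0 such as Oas2, Oas1a and Usp18 are held back, and fell from 136, 125, 187 and 129 RPKM in Lyn-/-Irf5-/- mice to 1.51, 3.18, 2.01 and 6.10 in Lyn-/-Ifnar1-/- mice, or -5.42 (SE 0.34, adjusted p = 1.9e-05). Ifi27l1 overlaps it on the chromosome and fell by 3.44, so reads of the pair may be shared. Rtp4 (chr16:23520219-23614222), a receptor-transporting protein induced by interferon, was at 0.444, 0.312, 0 and 0 against 20.7, 21.7, 29.5 and 19.6 RPKM, a log2 difference of -5.12 (SE 0.24, adjusted p = 2.3e-06). Ifit1 and Ifit3, which bind viral RNA or the proteins that do so, were at 1.19, 0.745, 2.47 and 1.96 and at 0.350, 0.492, 2.33 and 0.707 RPKM in Lyn-/-Ifnar1-/- mice. In Lyn-/-Irf5-/- mice Ifit1 was at 17.2, 21.0, 24.1 and 28.1 RPKM and Ifit3 at 11.0, 9.27, 13.3 and 12.4, with no overlap for either gene. Mx1 (chr16:97447035-97462906), a gene of the dynamin-like GTPase family, was at 0.587, 0.248, 0.625 and 0.317 against 3.51, 3.61, 2.65 and 3.94 RPKM, a log2 difference of -2.07 (SE 0.20, adjusted p = 0.00053). Bst2 (tetherin) fell by 1.67 and Xaf1 by 2.39, the call of Bst2 being lost without Lyn-/-Ifnar1-/- mouse 4 or any 1 Lyn-/-Irf5-/- mouse.

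Slfn4, Slfn5, Slfn8 and Slfn1, members of the Schlafen family of growth and RNA regulators, were among the lower genes. Slfn4 (chr11:83175172-83190216), a myeloid Schlafen gene, was at 1.85, 1.49, 1.64 and 0.833 RPKM in Lyn-/-Ifnar1-/- mice and at 16.6, 19.04, 25.2 and 21.6 in Lyn-/-Irf5-/- mice, or -3.45 (SE 0.21, adjusted p = 1.8e-05). The WT mean of Slfn4 was 2.79 RPKM, between the groups and nearer to Lyn-/-Ifnar1-/-. Slfn5 fell by 2.78, Slfn8 by 1.93 and Slfn1 by 1.36 on the log2 scale. Slfn8 was at 5.22 to 8.19 RPKM in WT mice and at 4.36 to 5.25 in Lyn-/- mice, so that its Lyn-/-Irf5-/- values of 7.81, 6.67, 7.51 and 7.16 lay within the WT range while its Lyn-/-Ifnar1-/- values of 1.57, 1.47, 1.85 and 1.29 lay below both.

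Nucleic acid sensors and interferon-inducible GTPases were lower in part. Of 16 sensors tested, 5 were lower (Ifi204, Ifi205, Mnda, Dhx58 and Zbp1) and the median log2 difference was -0.92. Without Lyn-/-Irf5-/- mouse 3 the count was 3, and without Lyn-/-Ifnar1-/- mouse 3 it was 8. Ifi204 (chr1:173747293-173767069), a DNA-binding PYHIN protein, was at 3.66, 4.28, 4.05 and 3.28 against 16.8, 17.7, 21.7 and 19.2 RPKM, or -2.16 (SE 0.15, adjusted p = 4.8e-05). Its Lyn-/-Ifnar1-/- values lay at the lower end of the WT range of 3.33 to 5.70, mouse 4 just below it, and its Lyn-/-Irf5-/- values within the Lyn-/- range of 12.9 to 27.0. Zbp1, a sensor of Z-form nucleic acid, was at 11.8, 9.32, 10.3 and 9.80 against 19.2, 19.2, 25.2 and 22.1 RPKM. The WT range of Zbp1 was 8.30 to 11.4 RPKM. Tlr7, the endosomal sensor of single-stranded RNA upstream of IRF5, was at 4.01, 4.39, 3.23 and 3.39 against 7.51, 5.62, 7.41 and 5.85 RPKM, apart in all 8 mice but not past the test, at -0.74 (SE 0.16, adjusted p = 0.093). Of the 14 guanylate binding proteins and immunity-related GTPases tested, 4 were lower (Irgm1, Irgm2, Iigp1 and Gbp9) and none was higher, but 2 were lower without Lyn-/-Ifnar1-/- mouse 4 or Lyn-/-Irf5-/- mouse 1, 3 or 4. Irgm2 passed under 12 of 22 alternatives and Gbp9 under 13 of 21. Irgm1, which acts on membranes and autophagy, was at 8.004, 5.51, 5.43 and 4.86 against 14.8, 13.8, 15.9 and 16.4 RPKM, or -1.31 (SE 0.17, adjusted p = 0.0046). Members of the PYHIN, Schlafen, Trim30 and GTPase families have near-identical copies, so their single values are uncertain.

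**Figure D3:**
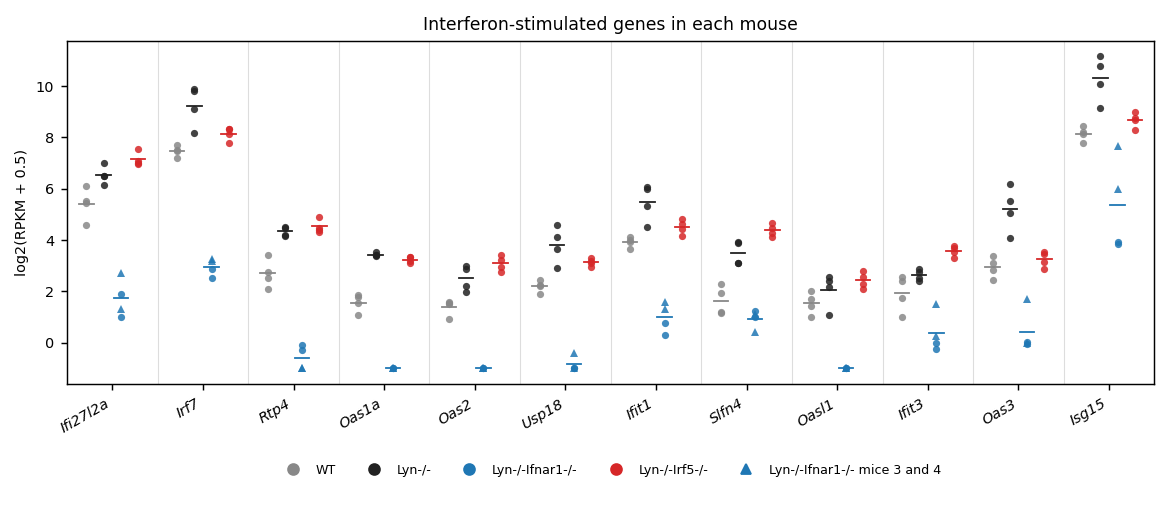
Levels of 12 ISGs in log2(RPKM + 0.5) in WT, Lyn-/-, Lyn-/-Ifnar1-/- and Lyn-/-Irf5-/- mice. Each point is 1 mouse, bars are group means and triangles are Lyn-/-Ifnar1-/- mice 3 and 4. Oas1a, Oas2 and Oasl1 lie at 0 RPKM, drawn at -1, in all 4 Lyn-/-Ifnar1-/- mice, and Isg15 spreads from 14.0 to 204 RPKM in this genotype.

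Against the reference genotypes, which were not tested here, Lyn-/-Irf5-/- mice had most of the 42 lower ISGs above WT levels, and Lyn-/-Ifnar1-/- mice had most below. Of the 42 lower ISGs, all 4 Lyn-/-Irf5-/- values lay above all 4 WT values in 29 (69.0%, against 14.6% of all genes tested) and below them in 2 (4.76%, against 12.04%). The 4 Lyn-/-Ifnar1-/- values lay below all 4 WT values in 30 of the 42 genes (71.4%, against 11.2% of all genes) and below all 4 Lyn-/- values in 40 (95.2%, against 4.84%). Lyn-/-Irf5-/- values lay below all Lyn-/- values in 8 of the 42 genes (19.05%, against 12.7% of all genes) and above them in 11 (26.2%, against 9.76%). Oasl2 was 1 of the genes that differed between these reference points, at 24.2, 38.9, 40.8 and 36.9 RPKM in Lyn-/-Irf5-/- mice and 83.6 to 240 in Lyn-/- mice, with 2.90, 1.96, 6.52 and 4.05 in Lyn-/-Ifnar1-/- mice. The 42 genes were chosen by a contrast that used the same 8 mice, so these counts describe them and are not independent of it. Over all 98 ISGs tested, the 4 Lyn-/-Irf5-/- values lay above all WT values in 44 (44.9%) and above all Lyn-/- values in 15 (15.3%). The 4 Lyn-/-Ifnar1-/- values lay below all WT values in 47 of the 98 (48.0%) and below all Lyn-/- values in 59 (60.2%).

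Promoters of the lower genes held the core of the interferon-stimulated response element in a larger share than other promoters. The core was searched as GAAA, any 2 bases and GAAA again, on both strands in RefSeq promoters of build GRCm38.p6, from 250 bases before to 50 bases after each gene start. Of the 68 lower genes 52 had a promoter, and 25 of these (48.1%) held the core, compared with 266 of 6633 (4.01%) of the genes tested and not called and 3.99% of all 27025 genes with a promoter. ISG list members that were not called held it in 19 of 45 (42.2%). The STAT motif TTCNNNGAA occurred in 8 of the 52 (15.4%, 8.28% of the genes not called) and the GATA motif AGATAA in 7 (13.5%, 7.96%). Over all genes with a promoter these motifs occurred in 9.55% and 12.7%. None of the 3 motifs was in the 3 higher genes with a promoter. A match is a description of the letters and not a binding site. The 4 promoters below belong to Oas1a, Ifit1, Ifit3 and Irgm1, which fell and hold the core more than once. They were picked after their values were seen, and are printed with each match of the core in capitals and shared bases where matches overlap.
Oas1a, chr5:120907476-120907775, minus strand: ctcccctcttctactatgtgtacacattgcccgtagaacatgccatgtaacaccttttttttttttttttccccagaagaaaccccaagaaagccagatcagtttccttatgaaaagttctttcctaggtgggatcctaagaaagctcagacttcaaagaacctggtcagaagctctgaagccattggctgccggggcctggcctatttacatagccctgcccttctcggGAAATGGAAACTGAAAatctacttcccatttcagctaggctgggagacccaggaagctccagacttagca
Ifit1, chr19:34640639-34640938, plus strand: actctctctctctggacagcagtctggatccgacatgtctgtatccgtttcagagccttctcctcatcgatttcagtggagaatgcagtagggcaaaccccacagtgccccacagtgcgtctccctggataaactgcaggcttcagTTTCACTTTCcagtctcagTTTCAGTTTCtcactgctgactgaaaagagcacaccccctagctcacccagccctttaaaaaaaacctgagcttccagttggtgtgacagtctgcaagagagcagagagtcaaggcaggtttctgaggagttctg
Ifit3, chr19:34583279-34583578, plus strand: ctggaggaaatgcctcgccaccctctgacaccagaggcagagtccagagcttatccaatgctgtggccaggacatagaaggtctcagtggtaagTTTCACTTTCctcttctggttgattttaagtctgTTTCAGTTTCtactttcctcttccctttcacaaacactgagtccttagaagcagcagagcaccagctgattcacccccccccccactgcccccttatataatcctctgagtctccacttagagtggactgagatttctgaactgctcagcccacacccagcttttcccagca
Irgm1, chr11:48871371-48871670, minus strand: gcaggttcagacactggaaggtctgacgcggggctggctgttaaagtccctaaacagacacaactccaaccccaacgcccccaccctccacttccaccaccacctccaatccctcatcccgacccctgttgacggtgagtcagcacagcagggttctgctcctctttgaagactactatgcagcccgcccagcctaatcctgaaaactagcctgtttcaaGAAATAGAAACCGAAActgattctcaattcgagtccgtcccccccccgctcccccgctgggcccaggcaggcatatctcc
In Oas1a and Irgm1 the matches run into each other close to the gene start, and in Ifit1 and Ifit3 they stand apart on the opposite strand. Oas1a with this promoter was at 0 in every Lyn-/-Ifnar1-/- mouse, while Irgm1 stayed at 4.86 to 8.004 RPKM, so these promoters belonged to genes that fell by very different amounts.

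Several classical monocyte genes were lower in Lyn-/-Ifnar1-/- mice. Of 16 tested, 5 passed the threshold, all lower (Ly6c2, Plac8, Ms4a4c, Ccr2 and Mgst1), beside 0.828% of all genes tested. The median log2 difference of the list was -0.74. Without Lyn-/-Ifnar1-/- mouse 1 or 4, or any 1 Lyn-/-Irf5-/- mouse, 3 were called, and Ccr2 and Mgst1 passed under 11 of 22 alternatives each. Ly6c2 (chr15:75108161-75112066), the Ly6C antigen that defines these monocytes and is also induced by interferon, was at 32.3, 37.1, 18.6 and 25.9 RPKM in Lyn-/-Ifnar1-/- mice and at 123, 119, 138 and 113 in Lyn-/-Irf5-/- mice, or -2.13 (SE 0.22, adjusted p = 0.00099). Its Lyn-/-Ifnar1-/- mean of 28.5 was below the WT mean of 42.8 RPKM, and the Lyn-/-Irf5-/- mean of 123 was near the Lyn-/- mean of 104. Ccr2 (chr9:124101918-124109140), the chemokine receptor by which monocytes leave the bone marrow, was at 15.5, 17.7, 14.0 and 14.8 against 28.7, 31.9, 25.99 and 27.3 RPKM, or -0.86 (SE 0.15, adjusted p = 0.028). Unlike Ly6c2, it stayed above the WT range of 5.84 to 10.4 in all 8 mice. Plac8 fell by 2.01, and Mgst1, a microsomal glutathione transferase, by 1.05. Fcgr1, the high-affinity IgG receptor of monocytes and an ISG, was at 1.49, 0.285, 0.718 and 2.18 against 7.08, 6.34, 8.22 and 8.47 RPKM, or -2.41 (SE 0.34, adjusted p = 0.0065). Ccr1 and Ccl9, a chemokine receptor and a chemokine of myeloid cells that stood in no list, fell by 1.31 and 1.39 and passed under 11 and 14 of 22 alternatives.

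Nonclassical monocyte genes had a median of the opposite sign. Dpep2, a membrane dipeptidase, was the 1 gene of 25 that passed the test, at 11.3, 15.4, 12.1 and 14.4 RPKM in Lyn-/-Ifnar1-/- and 7.12, 7.99, 6.91 and 5.24 in Lyn-/-Irf5-/- mice, or 0.92 (SE 0.17, adjusted p = 0.043). Pparg, a lipid-sensing nuclear receptor, was at 3.88, 5.82, 5.62 and 3.32 against 2.15, 2.23, 2.05 and 2.33 RPKM, apart in all 8 mice but not past the test, at 0.91 (SE 0.19, adjusted p = 0.067). The list median was 0.29, and 7 of its 25 genes had all 4 Lyn-/-Ifnar1-/- values above the others (4.93% of all genes did). Without mice 3 and 4, 8 genes of the list were higher, the median was 0.41, and Pparg was among them at 0.97 (adjusted p = 0.017). Cx3cr1, which defines these cells, had a range of 5.90 to 9.56 RPKM in Lyn-/-Ifnar1-/- and 6.87 to 8.97 in Lyn-/-Irf5-/- mice, which overlapped.

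Granulocyte and lymphocyte genes had few calls, although basophil and neutrophil lists had medians well below 0. All 28 mature neutrophil genes tested had a log2 difference below 0, with a median of -0.68, or -0.10 with the red cell list as a covariate. At an unadjusted p under 0.05, 15 of the 28 were lower (649 of all 8217 genes were). In 9 all 4 Lyn-/-Ifnar1-/- values lay below the others (6.21% of all genes). After adjustment, 1 gene passed the test. It was Il1r2, the decoy receptor for interleukin 1, at 2.601, 4.57, 1.38 and 3.85 against 8.72, 9.24, 11.4 and 10.6 RPKM. WT mice held Il1r2 at 2.19 to 5.20 RPKM. S100a8, an abundant neutrophil calcium-binding protein, was at 706.2, 698.0, 291.7 and 519.0 against 745.0 to 1042 RPKM, lowest in mice 3 and 4, and the list median was -0.28 without these mice, with 4 genes lower. In the basophil, mast cell and eosinophil list the median was -1.14, 7 of 10 genes had all 4 Lyn-/-Ifnar1-/- values below the others (6.21% of all genes did), 7 had an unadjusted p under 0.05 and 1 was lower, Ms4a2, the beta chain of the IgE receptor, at 0.497, 0.698, 0.330 and 0.502 against 2.42, 1.35, 1.95 and 1.54 RPKM. Hdc, which makes histamine in basophils and neutrophils, was at 8.67, 7.54, 1.95 and 4.95 against 17.7, 19.5, 21.0 and 13.9 RPKM with an adjusted p of 0.084, and of 0.0041 without mice 3 and 4, when 2 genes of the list were lower and its median was -0.77. Of 25 B cell genes 1 was lower, Ms4a1 (CD20), at 8.84, 10.4, 7.23 and 10.5 against 16.4, 22.8, 15.8 and 19.8 RPKM. Both groups were below the WT range of 53.8 to 82.2 RPKM and above the Lyn-/- range of 4.03 to 6.85. The calls of Il1r2, Ms4a2 and Ms4a1 were each lost without Lyn-/-Ifnar1-/- mouse 1 or 4 or Lyn-/-Irf5-/- mouse 1, 3 or 4, that of Il1r2 also without Lyn-/-Irf5-/- mouse 2, and that of Ms4a1 also without mouse 2 of either group. With all 8 mice, none of 33 T cell genes, 21 NK and cytotoxic genes, 12 plasma cell genes or 10 MHC class II genes passed the limma test, and 4, 1, 5 and 0 of them had an unadjusted p under 0.05. A T cell gene was lower and 1 NK gene higher without mice 3 and 4. MHC class I and immunoproteasome genes, also induced by interferon, had no call among 21, with 2 at an unadjusted p under 0.05 and a median of -0.22, and 1 was lower without mice 3 and 4.

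**Figure D4:**
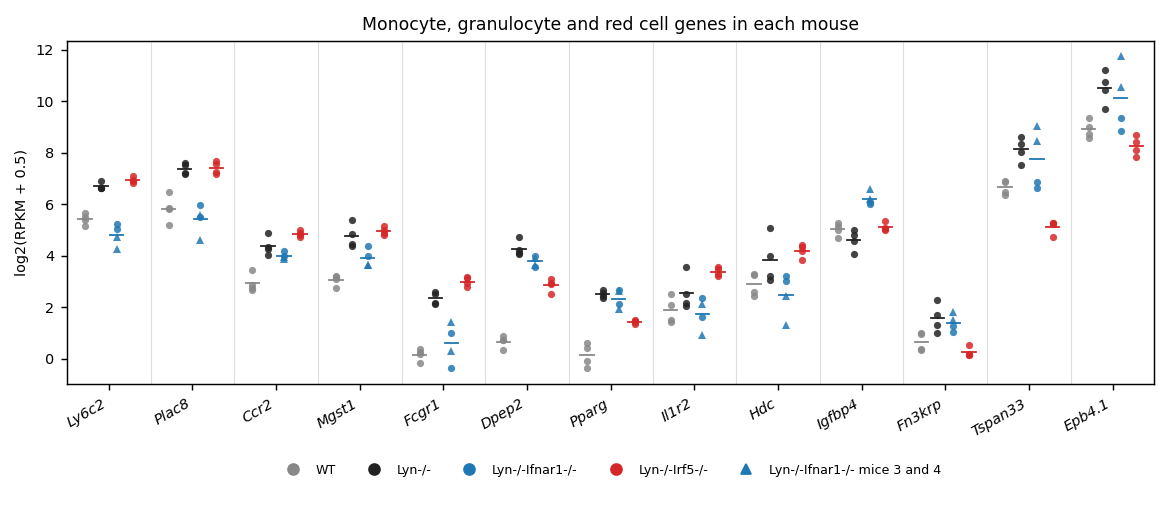
Levels of monocyte, granulocyte and red cell genes in log2(RPKM + 0.5), with points, bars and triangles as in the plot of ISGs by mouse. Ly6c2 lies at 18.6 to 37.1 RPKM in Lyn-/-Ifnar1-/- and at 113 to 138 in Lyn-/-Irf5-/- mice, and Tspan33 at 97.8 to 525 against 25.9 to 38.6.

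Inducers of interferon and of inflammation had few calls. Of 29 Toll-like receptor and MyD88 genes and 30 NF-kB subunits and targets none was called, although 6 and 8 of them had an unadjusted p under 0.05, and both medians were -0.25. Without mice 3 and 4 these medians were -0.09 and 0.05, and 1 gene of each list was lower. The interleukin 1 and inflammasome list had 1 call of 14, the Il1r2 named above, and the Fc receptor list 1 of 10, Fcgr1. None of the 22 Src family kinases and inhibitory receptors of LYN signalling was called, 3 having an unadjusted p under 0.05, and their median was -0.01.

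Tspan33, Igfbp4, Fn3krp and Dpep2 were the 4 genes that were higher in Lyn-/-Ifnar1-/- mice. Tspan33 (chr6:29694214-29718558), a tetraspanin of erythroid cells and activated B cells, was at 115, 97.8, 525 and 354 RPKM in Lyn-/-Ifnar1-/- mice and at 25.9, 37.4, 38.0 and 38.6 in Lyn-/-Irf5-/- mice, or 2.62 (SE 0.50, adjusted p = 0.044). Mice 3 and 4 were highest, and without them the difference was 1.61 (adjusted p = 0.00015). The Lyn-/-Irf5-/- values lay below the WT range of 82.3 to 119 and below the Lyn-/-Irf5+/- mean of 107 RPKM. Igfbp4 (chr11:99040005-99052655), a binding protein of insulin-like growth factors, was at 67.0, 63.1, 95.4 and 73.4 against 40.4, 31.2, 33.6 and 32.7 RPKM, or 1.09 (SE 0.18, adjusted p = 0.024). The Lyn-/-Irf5-/- values overlapped the WT range of 25.6 to 38.3 RPKM, and those of Lyn-/-Ifnar1-/- mice lay above it. Fn3krp, a kinase that removes sugar adducts from proteins, was at 1.90, 1.57, 2.29 and 3.02 against 0.946, 0.623, 0.590 and 0.609 RPKM and had 42 and 24 reads in the groups. No gene was higher when any 1 of the Lyn-/-Irf5-/- mice was left out. Leaving out Lyn-/-Ifnar1-/- mouse 1, 2 or 4 gave 2, 14 or 1 higher genes. Of these, 2, 3 and 0 were among the 4 genes named here. Leaving out mouse 3 gave 6, with all 4 among them.

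Red cell genes were higher by level in Lyn-/-Ifnar1-/- mice, but nearly all failed the test. Of 129 erythroid list members tested, 113 had a log2 difference above 0 and 1, Tspan33, passed the threshold. In this direction 56 had an unadjusted p under 0.05, as had 629 of all 8217 genes. In 30 of the 129 (4.93% of all genes) the 4 Lyn-/-Ifnar1-/- values lay above the others, and the median was 0.90. Epb4.1, protein 4.1 of the red cell skeleton, was at 646, 456, 3449 and 1526 RPKM against 229, 338, 274 and 409. Sptb, beta spectrin, was at 13.7, 9.41, 62.1 and 24.6 against 2.75, 6.02, 4.00 and 4.75 RPKM, or 2.196 (SE 0.49, adjusted p = 0.10). In both genes mouse 3 was highest and mouse 4 second, and mice 1 and 2 were above the Lyn-/-Irf5-/- mice by less. Without mice 3 and 4 the erythroid median was 0.15, with 7 genes higher, Sptb among them at 1.33 (adjusted p = 0.014).

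Mitochondrial and platelet lists differed mainly in the same mice. The 75 subunits of oxidative phosphorylation complexes had no limma call, and their median was 0.35. At an unadjusted p under 0.05, 11 were higher and 1 was lower, beside 629 and 649 of all 8217 genes. The median was 0.01 without mice 3 and 4, and 2 subunits of complex I were then lower. The summed level of these subunits was 4202, 4351, 14618 and 9317 RPKM in Lyn-/-Ifnar1-/- mice and 3804 to 4244 in Lyn-/-Irf5-/- mice. Platelet and megakaryocyte genes had a median of 0.54, or -0.05 without these mice, and no call among 26, with 4 at an unadjusted p under 0.05. The 18 mitotic genes tested had no call, 5 at an unadjusted p under 0.05 and a median of 0.14. Without these mice the median was 0.13, with 1 gene lower and 1 higher. Cytosolic ribosomal protein genes, 73 in all, had no call, 3 at an unadjusted p under 0.05 and a median of -0.01.

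**Figure D5:**
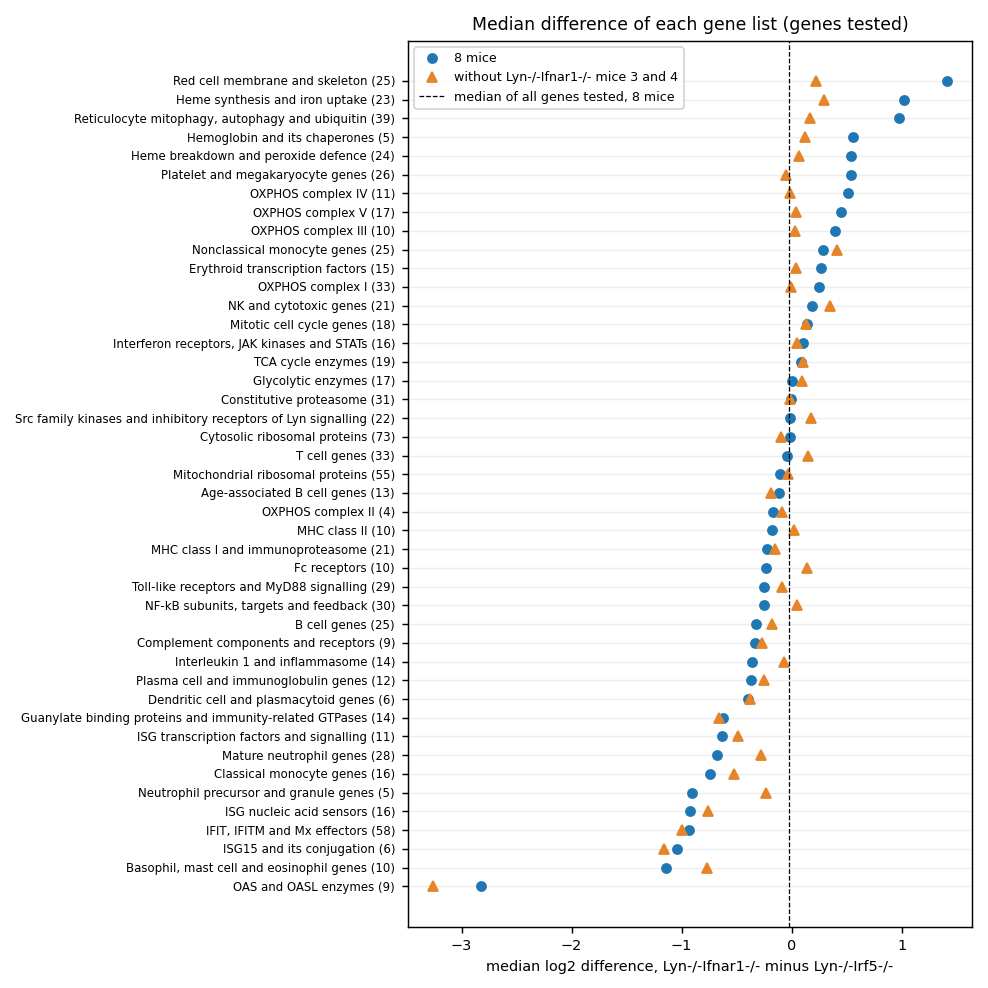
Median log2 difference of each gene list, with the number of genes tested in parentheses, for all 8 mice (blue points) and without Lyn-/-Ifnar1-/- mice 3 and 4 (orange triangles). The OAS list stays at -2.83 and -3.26, whereas the red cell membrane list moves from 1.41 to 0.22.

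Genes close to the targeted loci were compared with the table as a whole, in which 0.876% of the genes were called. Within 10 Mb of the start of Ifnar1 (chr16:91485032-91510523) 1 of 39 genes tested was called (2.56%), Mx1, an ISG that lies 5.96 Mb away. Ifnar2 and Il10rb, receptor chain genes that lie side by side with it, had log2 differences of 0.33 and 0.10, neither past the test. Within 10 Mb of the start of Irf5 (chr6:29526130-29541869) 2 of 46 genes were called (4.35%), the ISG Parp12 and Tspan33, both calls being lost when any 1 Lyn-/-Irf5-/- mouse was left out. Tspan33 starts 0.168 Mb from Irf5, and the genes between and around them, Tnpo3 and Ahcyl2, had differences of -0.11 and -0.03. Within 2 Mb, 3 of 18 genes had all 4 Lyn-/-Ifnar1-/- values above the Lyn-/-Irf5-/- values (4.93% of all genes did), Arf5 at 1.86 and Ube2h at 1.22 without passing the test. Arf5, Ube2h and Tspan33 were all highest in mice 3 and 4, and whether their position bears on these values was not tested. Arf5 was picked after its values were seen. No gene within 10 Mb of Lyn was called among 16, and 2 had an unadjusted p under 0.05 in limma.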

How the data were processed

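RNA of peripheral blood from 8 mice, 4 per genotype, was compared. The deposited table holds RPKM, which the authors made with STAR on mm10, featureCounts and edgeR's TMM scaling. Its 20 columns matched the labels by name. The strand setting of the counting is not given in the sources used here. Each value was taken as log2(RPKM + 0.5), since RPKM are not counts, and the pseudocount understates changes of low genes. Genes that reached 1 RPKM in 4 or more of the compared libraries were tested with limma 3.58.1 in R 4.3.3 (trended prior variance, 2-sided, Benjamini-Hochberg over 8217 genes, threshold 0.05), a script tested on simulated data. For 9222 of 9228 genes the values fell on steps worth 1 read, within 0.05 reads, and the reads so recovered served for depth, for floors of 3 reads over a group, and for a voom fit. Such bounds and intervals cover counting error only. The 4 mice of a group are separate samples by their labels.

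The genes named were those with the largest called changes, up to 4 per list with the smallest p, the called members of lists with 5 or fewer calls, called genes near the targeted loci and the targeted genes, with additions marked in the text or named beside a list. Ccl9, Ccr1, Slfn1, Ifnar2, Il10rb, Tnpo3 and Ahcyl2 were also picked after their values were seen. The members, the gene lists and the setting without Lyn-/-Ifnar1-/- mice 3 and 4 were chosen with earlier results of these data known. Positions and promoters are from RefSeq GRCm38.p6, which matched 9195 genes of the table and gave promoters for 6688 of the genes tested. Alternatives changed the pseudocount, filter, scaling, libraries, weights, covariate, block and test, 22 in all. Some genes are not reported here.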

Additional observations from a re-analysis of the deposited data

Results flagged for a closer look

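In a group of 4 mice a value was looked at again when its gap to the nearest other mouse, divided by the range of the group, passed Dixon's critical value at the 95% level. Chance alone passes about 1 in 20 groups. The rule was applied to the called genes, the genes given with values, the lists and the library values, a choice of items made after a first pass over all named genes.

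Among Lyn-/-Ifnar1-/- mice, Usp18 was listed at 0.266 RPKM in mouse 4 and at 0 in the others, and Ifi205 at 0.305 RPKM in mouse 2 and at 0 in the others. Oas3 was at 2.76 RPKM in mouse 3, above 0.469 to 0.519. Bst2 was lowest in mouse 3, at 3.64 RPKM against 9.62 to 10.04, as was Hsh2d, at 0.759 against 1.81 to 1.997. BC147527 was lowest in mouse 4, at 1.42 RPKM against 2.11 to 2.24. Mouse 3 also had the lowest list means, at 3.07 for Fc receptors, 1.99 for dendritic cell genes and 2.601 for B cell genes on the log2 scale, against 3.95 to 4.09, 2.80 to 2.89 and 3.44 to 3.55.

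Among Lyn-/-Irf5-/- mice, mouse 1 was lowest for Tspan33 (25.9 RPKM against 37.4 to 38.6) and Trim30a (10.35 against 14.6 to 14.9), and highest for Fn3krp (0.946 against 0.590 to 0.623). Mouse 4 was highest for Ube2l6 (8614 RPKM against 5537 to 5867) and lowest for Slfn1 (62.5 against 84.7 to 86.9), and 4 genes were listed at 0 in it against 1 in each other mouse. Gm12250 was lowest in mouse 2, at 4.285 RPKM against 5.60 to 5.71.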

How the results depend on the processing

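Of the 68 lower genes, 39 were called under every one of the 22 alternatives in which they were tested, some being removed by the stricter filter, as was 0 of the 4 higher genes, and no direction of a called result reversed. The count of lower ISGs, 42, stayed at 30 to 62. Lower and higher genes numbered 173 and 173 with all 20 libraries in 1 model, 109 and 20 with library weights, and 121 and 47 without Lyn-/-Ifnar1-/- mice 3 and 4. With the erythroid score as a covariate, 55 genes were lower and 7 higher, and 44 of the 68 and 2 of the 4 were among them. The erythroid median was then -0.07 and that of oxidative phosphorylation subunits -0.08. This score is itself the mean of the red cell membrane and skeleton list. Erythroid genes called higher numbered 23 with all 20 libraries, 7 without mice 3 and 4, 5 with library weights, 3 at the same RPKM sum, 2 at the same sum outside hemoglobin genes, 2 with voom, and 0 with a pseudocount of 0.1 or median-of-ratios scaling. Leaving out 1 mouse at a time gave 42 to 82 lower, 0 to 14 higher, 32 to 47 lower ISG and 0 to 2 higher erythroid genes. Scaling to the same RPKM sum moved the median of all genes to -0.68, and the median of oxidative phosphorylation subunits to -0.36, above that shift. Within 2 Mb, 0 genes near Ifnar1 and 1 near Irf5 were called. The cause of these changes was not tested.

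With the replicate number as a block, 41 genes were lower and 1 higher. Mice with the same number had correlations of 0.14, 0.12, -0.07 and 0.29 in their deviations from the group means, so the numbers were not taken to pair the mice. Depth limits low genes, as the median gene had 11 reads in the shallowest library. One further fit, on a subset of mice picked because they stood apart, was run once, set aside for that reason and used for no result.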
